A study of Sus scrofa with 8 samples.

Results

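Clones of a porcine B cell lymphoma were set against normal T cells, with 6 clone libraries and 1 library of CD3+ splenocytes. These are 7 of the 8 RNA libraries of the series, chosen by their sample labels alone, and the 8th, from CD21+ splenocytes, serves here for levels only. The study asked by this comparison, and by a separate one with the CD21+ library, whether the lymphoma is closer to T or to B cells.

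The clones are pig (Sus scrofa) cells dissociated from tumours, 4 from a tumour of the subiliac lymph node and 2 from a spleen tumour, which grew out in culture and were then carried through 4 rounds of limiting dilution. The CD3+ cells are splenocytes enriched with magnets and were not described as cultured, so culture and lymphoma cannot be told apart in any difference given here. Clones of 1 tumour share their source. The labels name no animal, age or sex for any group, and give no treatment. Total counts ran from 16415644 to 27253505 over the clones and came to 21292294 for the CD3+ library. Mitochondrially encoded transcripts made up 7.07 ± 0.562% of each clone's counts (SD, n = 6) and 21.6% in the CD3+ library. No pair of clones agreed within counting noise, since the chi-square statistic per gene ran from 4.15 for lymph node clones 2 and 3 to 52.1 for lymph node clones 1 and 4.

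T cells recognise antigen through a receptor of alpha and beta or gamma and delta chains, which reaches the surface only together with the CD3 chains, and pigs are known for a large pool of gamma-delta T cells. Engagement of the receptor activates the kinases LCK and ZAP70 and the adaptor LAT. B cells build a separate receptor around CD79A and CD79B, signal through SYK, BTK and BLNK, and owe their identity to transcription factors that include PAX5 and EBF1.

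Of 13605 genes tested, 9722 were called at an adjusted p of 0.05, or 71.5%, with 5133 higher (37.7%) and 4589 lower (33.7%) in the clones (edgeR quasi-likelihood F-test, Benjamini-Hochberg adjustment). Levels are given as CPM, the usual depth-scaled count, after TMM scaling, which corrects library totals for composition, and each log2 fold change carries its approximate standard error. A difference of 4-fold or more was also found for 2107 of the higher genes (15.5% of those tested) and 1530 of the lower ones (11.2%). All 6 clones lay above the CD3+ library for 45.1% of the genes tested and below it for 41.0%. In every called gene all 6 clones lay on the same side of the CD3+ library, so a lack of overlap adds nothing to a call. Over the whole set tested, the median log2 fold change, clones over CD3+, was 0.09. With total-count scaling that median was 0.51, and 6854 of 9968 called genes were higher, 68.8% against 52.8% with the scaling used here. Because the CD3+ arm is 1 library, the error is estimated from the clones, and with no animal named no p-value reaches beyond the spread among these clones. In such bulk RNA, fewer cells of a type and less RNA per cell cannot be told apart.

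**Figure D1:**
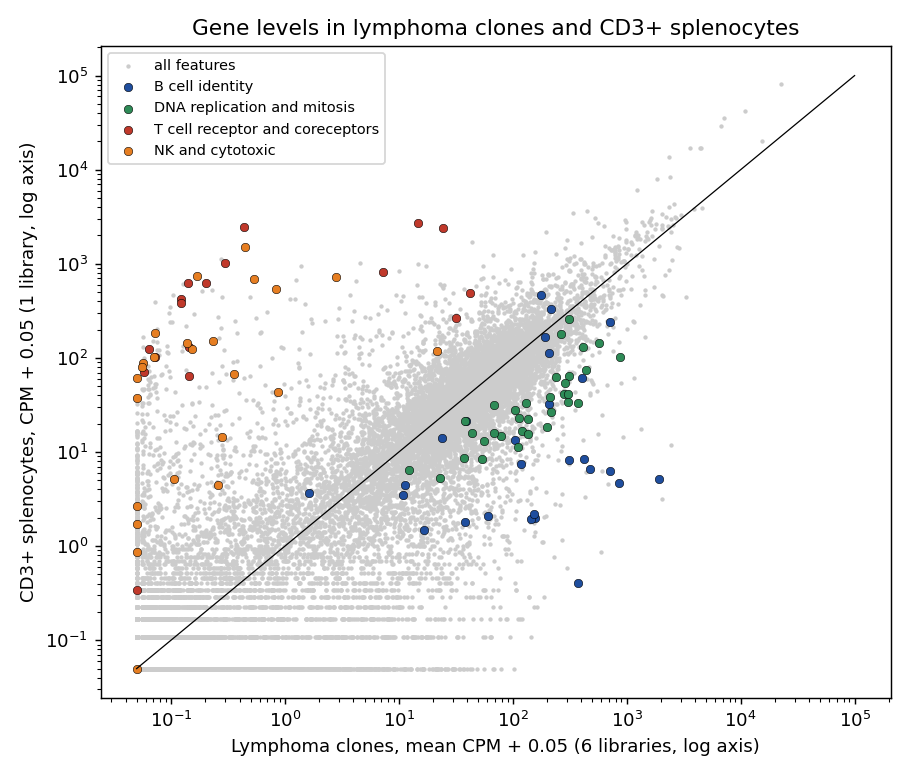
Mean normalised level (CPM) of each feature in the 6 clones (horizontal, log axis) against CPM in the CD3+ library (vertical, log axis), each with 0.05 added. The T cell receptor and cytotoxic genes that were tested sit above the diagonal line of equal levels, and replication genes and most B cell identity genes sit below it.

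Genes of the T cell receptor complex were lower in the clones. All 16 tested genes of the receptor and its coreceptors fell 4-fold or more, against 11.2% of all genes tested. Their median log2 fold change was -11.94. The list held 22 symbols, of which 17 were in the table. The filter on low counts let a gene through on 1 library, so genes with transcripts in the CD3+ library alone, or in the clones alone, entered the test and had to differ in that direction.

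CD3E, the epsilon chain, stood at 0.244 to 0.572 CPM, median 0.367, in the clones against 2487 CPM in the CD3+ library. Every clone was below 1 CPM and far under the CD3+ level (log2 fold change -12.66 ± 0.15, adjusted p = 8.66e-10). CD3D, the delta chain, stood at 0 to 0.210 CPM, median 0.0759, in the clones against 632 CPM in the CD3+ library, with no count in spleen clone 1 (log2 fold change -12.70 ± 0.24, adjusted p = 7.69e-09). CD3G, the gamma chain, stood at 0.0838 to 0.452 CPM, median 0.224, in the clones against 1020.2 CPM in the CD3+ library (log2 fold change -12.05 ± 0.22, adjusted p = 6.96e-09). The 3 genes lie side by side in Sscrofa11.1 (CD3E chromosome 9, 45619730 to 45633972; CD3D, 45640475 to 45644153; CD3G, 45645243 to 45656779), and all of them were under 1 CPM in each clone.

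CD247, the zeta chain that carries most of the signalling motifs of the receptor, fell by a smaller factor. It stood at 17.1 to 54.1 CPM, median 18.4, in the clones against 2394 CPM in the CD3+ library (log2 fold change -6.61 ± 0.46, adjusted p = 5.54e-06). Lymph node clone 4 held the highest level, and the other 5 clones lay between 17.1 and 20.9 CPM, below the 24.4 CPM of the CD21+ library. CD247 lies on chromosome 4, 83494266 to 83586887.

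The coreceptors were at or near 0 in the clones. CD8A, the alpha chain of the coreceptor of cytotoxic T cells, stood at 0.0349 to 0.113 CPM, median 0.0739, in the clones against 422 CPM in the CD3+ library (log2 fold change -12.47 ± 0.12, adjusted p = 1.98e-10). CD4, the coreceptor of helper T cells, had 2 counts in all 6 clones together against 2098 in the CD3+ library, 8999-fold lower by summed counts (95% counting interval 2488 to 74359.5). No CD4 count was found in 4 clones, and lymph node clones 2 and 3 had 1 count each.

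The CD3+ library held transcripts of the delta and the beta chain loci. TRDC, the constant segment of the delta chain, stood at 3.96 to 30.3 CPM, median 14.2, in the clones against 2695 CPM in the CD3+ library (log2 fold change -7.51 ± 0.55, adjusted p = 7.21e-06). Lymph node clone 1 had the lowest and lymph node clone 4 the highest TRDC level, and none approached the CD3+ library. Of 20 variable and constant segments in the table, 14 were tested, 8 of them with no count in any clone, so that these could only fall. Of the 14, 13 fell, against 33.7% of all genes tested. The median log2 fold change of the 14 was -9.02, or -7.57 at the bounds set by 3 counts. The exception was TRAV36DV7, a variable segment, with 0.168 to 1.25 CPM in the clones and 1.77 CPM in the CD3+ library (adjusted p = 0.0791), named after its values were seen. It was called lower without lymph node clone 4 (log2 -2.52, adjusted p = 0.00304), with the spleen clones alone (adjusted p = 0.000867) and with limma-voom (adjusted p = 0.0251). TRBV19 and TRBV30, variable segments of the beta chain, had no count in any clone against 16.5 and 10.7 CPM in the CD3+ library. They were at least 801-fold and at least 520.5-fold lower, from a floor of 3 counts over the 6 clones. TRBV25-1 had 1 count in all clones together against 236 in the CD3+ library. Variable segments resemble each other in sequence and may share reads.

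Other surface proteins of T cells fell but stayed at a measurable level. CD5, a brake on antigen receptor signalling, stood at 35.3 to 48.4 CPM, median 42.6, in the clones against 487 CPM in the CD3+ library (log2 fold change -3.54 ± 0.12, adjusted p = 1.43e-07). All clones were below the CD3+ library, and all were above the 10.4 CPM of the CD21+ library. CD96, an adhesion receptor of T and NK cells, stood at 19.7 to 37.6 CPM, median 35.4, in the clones against 264 CPM in the CD3+ library (log2 fold change -3.06 ± 0.24, adjusted p = 1.00e-05), with 2.60 CPM in the CD21+ library. CD2, an adhesion receptor, stood at 4.72 to 13.01 CPM, median 6.40, in the clones against 825 CPM in the CD3+ library (log2 fold change -6.82 ± 0.32, adjusted p = 6.02e-07). For CD2 the clones lay under the CD21+ library too, at 40.5 CPM. The difference of the clones from the CD21+ library was not tested here.

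**Figure D2:**
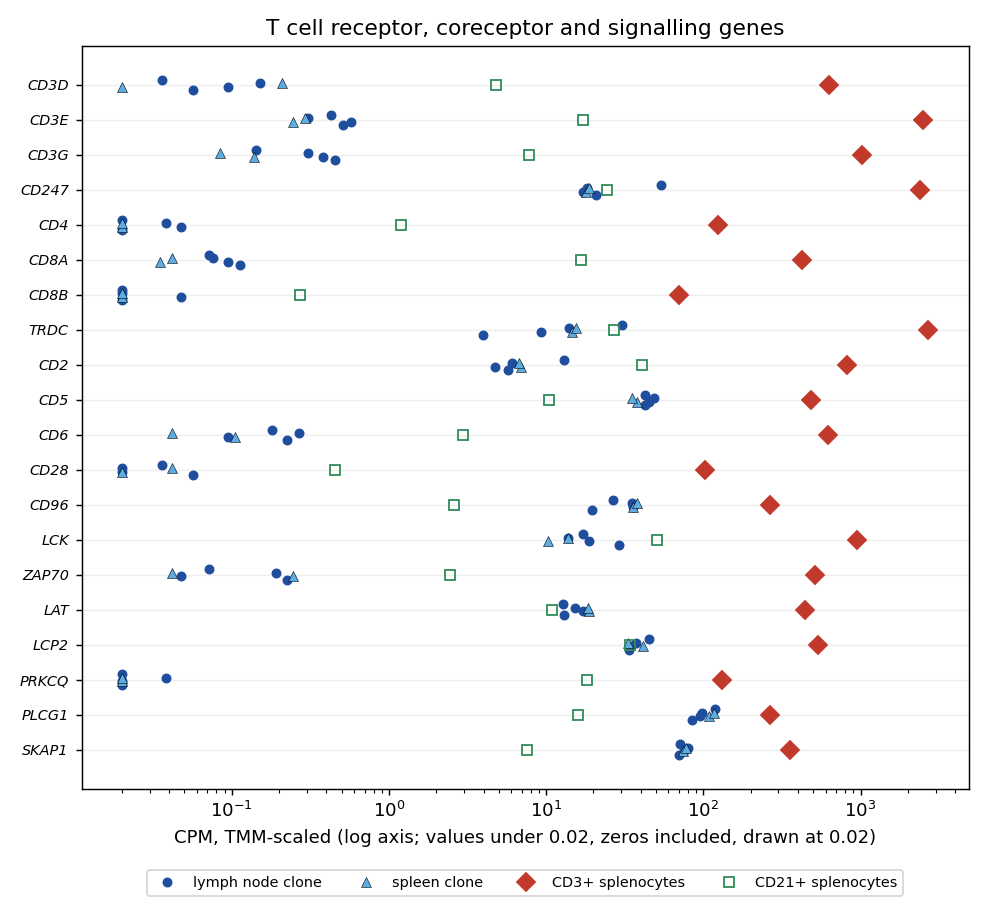
CPM (horizontal, log axis) of T cell receptor, coreceptor and signalling genes, with 1 symbol per library: circles for lymph node clones, triangles for spleen clones, a filled diamond for CD3+ and an open square for CD21+ splenocytes. The diamond lies to the right of every clone in each row, by the widest margins for genes such as CD3E, CD3D and PRKCQ and by small ones for PLCG1 and SKAP1.

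The relay below the receptor was lower throughout, but over a wide range of sizes. All 29 tested signalling genes fell, against 33.7% of all genes tested, and 22 fell 4-fold or more, against 11.2%. Their median log2 fold change was -3.85. ZAP70, the kinase that docks on the receptor's phosphorylated chains, stood at 0.0419 to 0.244 CPM, median 0.131, in the clones against 511 CPM in the CD3+ library (log2 fold change -11.80 ± 0.21, adjusted p = 6.35e-09). LCK, the kinase that phosphorylates those chains, stood at 10.3 to 29.1 CPM, median 15.4, in the clones against 953 CPM in the CD3+ library (log2 fold change -5.81 ± 0.33, adjusted p = 1.77e-06). For both genes the clones lay below the CD3+ library and also below the CD21+ library, at 2.46 CPM of ZAP70 and 50.9 CPM of LCK.

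PRKCQ, the protein kinase C of the T cell synapse, had 1 count in all 6 clones together against 2217 in the CD3+ library, 19019.6-fold lower by summed counts (95% counting interval 3410.1 to 751570.0). SH2D1A, the adaptor SAP, had 3 counts against 1832, 5239-fold lower by summed counts (1789.8 to 25427). In both genes single reads make up the whole signal of the clones.

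LAT, the scaffold adaptor of the receptor, stood at 12.8 to 18.7 CPM, median 16.2, in the clones against 446 CPM in the CD3+ library (log2 fold change -4.81 ± 0.16, adjusted p = 1.12e-07), while the CD21+ library held 10.9 CPM. SKAP1, an adaptor that links the receptor to integrins, stood at 70.5 to 79.5 CPM, median 75.1, in the clones against 358 CPM in the CD3+ library (log2 fold change -2.26 ± 0.07, adjusted p = 1.12e-07). SKAP1 varied little among clones, and each clone exceeded the 7.53 CPM of the CD21+ library.

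Transcription factors of the T lineage split. Of 25 tested, 19 fell, against 33.7% of all genes tested, while 3 rose and 3 were not called. Of the 19, 1 had no count in any clone and could only be lower. The median log2 fold change was -5.28. BCL11B, which commits progenitors to the T lineage, had 2 counts in all clones together against 1234 in the CD3+ library, 5293-fold lower by summed counts (95% counting interval 1462 to 43757). GATA3, needed for T cell commitment and helper type 2 cells, had 3 counts against 2065, 5905-fold lower by summed counts (2018 to 28658). EOMES, a T-box factor of cytotoxic cells, stood at 0 to 0.0762 CPM, median 0.0521, in the clones against 350.5 CPM in the CD3+ library (log2 fold change -12.68 ± 0.17, adjusted p = 1.21e-09).

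TCF7 and LEF1, related factors at the end of the WNT pathway that both act in early T cells, went opposite ways. TCF7 stood at 46.2 to 69.8 CPM, median 52.2, in the clones against 946 CPM in the CD3+ library (log2 fold change -4.12 ± 0.16, adjusted p = 2.17e-07), every clone being below the CD3+ library, and the clones lying on both sides of the 47.8 CPM of the CD21+ library. LEF1 stood at 1138 to 1716 CPM, median 1266, in the clones against 363 CPM in the CD3+ library (log2 fold change 1.86 ± 0.22, adjusted p = 0.000118). All clones were above the CD3+ library, lymph node clone 4 highest, and the CD21+ library held 1.69 CPM. RUNX1, a factor of blood progenitors and of both lineages, stood at 384 to 432 CPM, median 414, in the clones against 126 CPM in the CD3+ library (log2 fold change 1.71 ± 0.10, adjusted p = 2.06e-06). ZEB2, a repressor used in several blood lineages, stood at 105 to 137 CPM, median 116, in the clones against 34.4 CPM in the CD3+ library (log2 fold change 1.77 ± 0.16, adjusted p = 1.98e-05). For each of the 3 genes that rose, as for every gene called, no clone overlapped the CD3+ library.

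SATB1, a chromatin organiser of T cells, separated 1 clone from the rest. Lymph node clone 4 held 0.753 CPM and the other clones 34.0 to 40.0 CPM, against 117 CPM in the CD3+ library. The log2 fold change over 6 clones was -1.92 ± 0.98 (adjusted p = 0.109), and without lymph node clone 4 it was -1.66 (adjusted p = 1.69e-06). The other genes not called were ZBTB7B and ID3, with log2 fold changes of -0.28 and -0.81. ID3 was called lower without lymph node clone 1 (adjusted p = 0.0234), and both were called lower with the spleen clones alone (log2 -1.36 for ID3 and -0.41 for ZBTB7B).

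**Figure D3:**
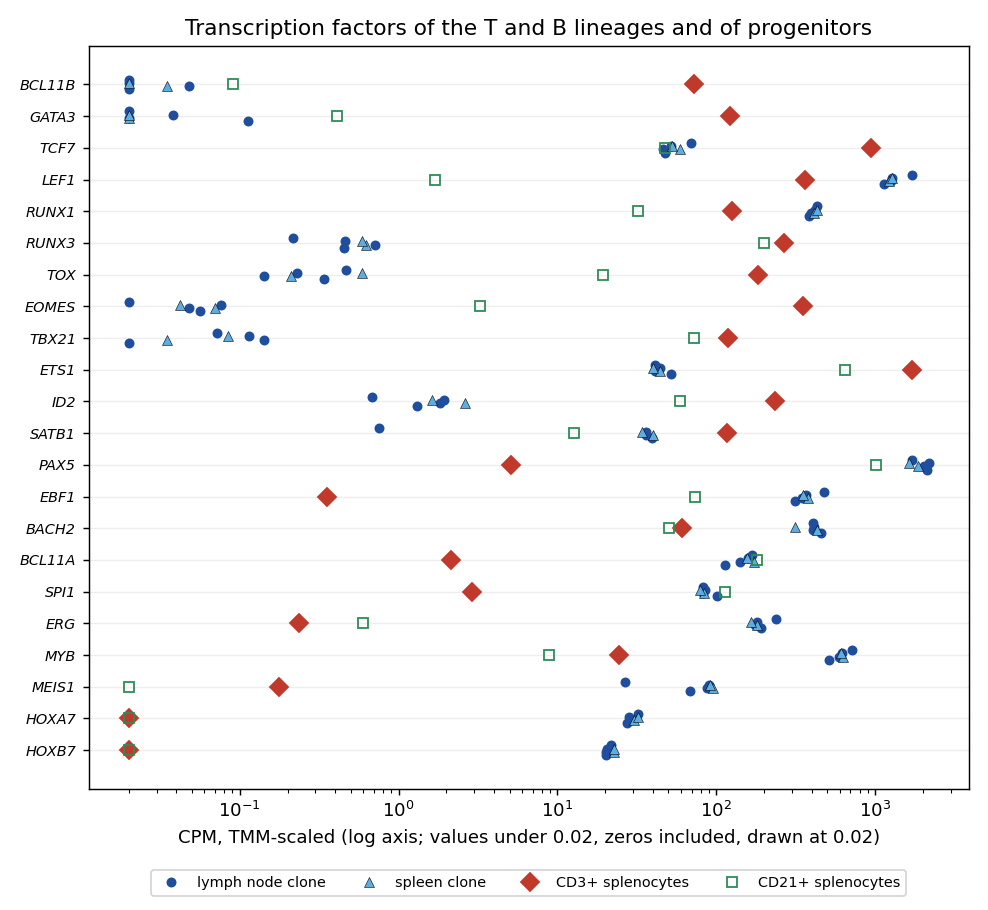
CPM (horizontal, log axis) of transcription factors of the T lineage (upper rows), the B lineage and blood progenitors (lower rows), 1 symbol per library as named in the legend. The CD3+ diamond lies right of all clones for BCL11B, GATA3, TCF7 and from RUNX3 to SATB1, and left of all clones for LEF1, RUNX1 and from PAX5 to HOXB7, and 1 lymph node clone stands apart in the SATB1 row.

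Genes of cytotoxic lymphocytes were lower in the clones throughout. Against 11.2% of all genes tested, all 22 tested NK and cytotoxic genes fell 4-fold or more, with a median log2 fold change of -9.97. Of the 22, 4 had no count in any clone, entered the test through the CD3+ library and could only be lower. The summed level of the list was 23.9 to 34.5 CPM in the clones and 5428 CPM in the CD3+ library. PRF1, the pore-forming perforin, had no count in any clone against 37.1 CPM in the CD3+ library, at least 1796-fold lower. CRTAM, a receptor of cytotoxic T cells, likewise had none against 61.8 CPM, at least 2994-fold lower. GZMB, the protease granzyme B, had 1 count against 1492, 12799.9-fold lower by summed counts (95% counting interval 2294 to 505902).

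NKG7, a granule membrane protein, stood at 17.7 to 27.03 CPM, median 20.1, in the clones against 119.8 CPM in the CD3+ library (log2 fold change -2.48 ± 0.19, adjusted p = 9.84e-06). The CD21+ library held 7.07 CPM of it. The NK receptor genes NCR1 and KLRD1 stood in the CD3+ library at 1.65 and 2.60 CPM, and had no count in the clones. NK cells lack surface CD3, and whether any contributed to the CD3+ library was not tested.

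Of 10 tested genes of gamma-delta and innate-like T cells, 9 fell, against 33.7% of all genes tested. The median log2 fold change of the 10 was -7.17. Of the 9, 2 had no count in any clone and could only be lower. SOX13, a factor of gamma-delta T cells in mouse, stood at 0 to 0.0838 CPM, median 0.0418, in the clones against 46.8 CPM in the CD3+ library (log2 fold change -9.97 ± 0.38, adjusted p = 2.03e-07). IL23R, the receptor for interleukin 23, had no count in any clone against 4.49 CPM, at least 217-fold lower. CCR6, a chemokine receptor of B cells as well as of such T cells, was the gene that rose, at 21.9 to 26.6 CPM, median 25.4, in the clones against 3.96 CPM in the CD3+ library (log2 fold change 2.63 ± 0.18, adjusted p = 5.15e-06).

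Most costimulatory molecules fell, while CD40, CD70 and CD86 rose. Of 21 tested, 16 fell and 3 rose, against 33.7% and 37.7% of all genes tested, with a median log2 fold change of -2.66. CD40, the receptor through which B cells receive T cell help, stood at 168 to 212 CPM, median 183, in the clones against 2.01 CPM in the CD3+ library (log2 fold change 6.55 ± 0.21, adjusted p = 1.11e-07). Its ligand CD40LG had 2 counts in all clones together against 867 in the CD3+ library, 3719-fold lower by summed counts (95% counting interval 1026 to 30758). The receptor and the ligand were thus high on opposite sides of the comparison, with no overlap in either, as for every gene called.

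CD86, a ligand of CD28 and CTLA4, stood at 114 to 188 CPM, median 147, in the clones against 48.7 CPM in the CD3+ library (log2 fold change 1.58 ± 0.29, adjusted p = 0.00151). CD70, the ligand of CD27, stood at 9.24 to 13.3 CPM, mean 11.3, in the clones against 1.83 CPM in the CD3+ library (log2 fold change 2.62 ± 0.28, adjusted p = 5.63e-05). PDCD1, the checkpoint receptor PD-1, had 2 counts against 708, 3037-fold lower by summed counts (838 to 25126). TNFSF14, the ligand LIGHT, had 1 count against 431, 3698-fold lower by summed counts (660.1 to 146379.9).

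Among cytokines and their receptors 21 of 28 tested genes fell and 7 rose, against 33.7% and 37.7% of all genes tested. Of the 21, 1 had no count in any clone and could only be lower. The median log2 fold change was -2.14. LTA and LTB, lymphotoxins by which lymphocytes organise lymphoid tissue, led the risers. LTA stood at 38.7 to 55.7 CPM, median 47.4, in the clones against 4.49 CPM in the CD3+ library (log2 fold change 3.42 ± 0.26, adjusted p = 8.08e-06), and LTB at 486 to 708 CPM, median 542, in the clones against 114 CPM in the CD3+ library (log2 fold change 2.33 ± 0.24, adjusted p = 5.23e-05). All clones were above the CD3+ library for both.

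TNF, IL2RA, IFNGR1, TGFBR1 and TGFBR2 rose by less, with log2 fold changes of 0.80, 1.03, 0.66, 1.08 and 0.53. The call for TGFBR2 was lost with another scaling, RLE size factors (log2 0.446, adjusted p = 0.0588). IFNG, the interferon of activated T and NK cells, had 2 counts in all clones together against 686, 2943-fold lower by summed counts (95% counting interval 812 to 24347). SOCS3, a feedback inhibitor of cytokine signalling, stood at 0.0953 to 0.314 CPM, median 0.221, in the clones against 271 CPM in the CD3+ library (log2 fold change -10.28 ± 0.14, adjusted p = 1.67e-09). IL18R1, a chain of the interleukin 18 receptor, had 1 count against 174, 1493-fold lower by summed counts (264 to 59295).

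Most homing and adhesion genes were lower in the clones. Of 26 tested, 22 fell, against 33.7% of all genes tested, while 2 rose and 2 were not called. The median log2 fold change was -3.67. Of the 22, 2 had no count in any clone and could only be lower. ITGB2, the beta chain of the leukocyte integrins, stood at 0.609 to 1.98 CPM, median 1.31, in the clones against 938 CPM in the CD3+ library (log2 fold change -9.50 ± 0.23, adjusted p = 2.31e-08). No clone reached 2 CPM, while the CD21+ library held 572 CPM. S1PR1, the receptor that guides lymphocytes out of lymphoid organs, stood at 0.545 to 2.09 CPM, median 1.18, in the clones against 426 CPM in the CD3+ library (log2 fold change -8.53 ± 0.25, adjusted p = 6.21e-08), with 281 CPM in the CD21+ library.

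S1PR5 and CCR4, an egress receptor and a chemokine receptor, had no count in any clone against 26.2 and 16.2 CPM in the CD3+ library, at least 1269.7-fold and at least 786-fold lower. ITGA6, a laminin-binding integrin chain, stood at 1175 to 1558 CPM, median 1297, in the clones against 17.6 CPM in the CD3+ library (log2 fold change 6.23 ± 0.22, adjusted p = 1.40e-07). The CD21+ library held 22.7 CPM of ITGA6, so all clones lay above both normal libraries. CCR10, a chemokine receptor of skin-homing and antibody-secreting cells, rose at low levels, at 3.63 to 5.66 CPM, median 4.38, in the clones against 0.531 CPM in the CD3+ library (log2 fold change 3.09 ± 0.45, adjusted p = 0.000337).

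Regulators of quiescence fell in the main, 14 of 18 tested against 33.7% of all genes tested, with a median log2 fold change of -1.89. KLF4, which restrains lymphocyte division, had 2 counts in all clones together against 783, 3359-fold lower by summed counts (95% counting interval 927 to 27782). PIK3IP1, an inhibitor of PI3 kinase, stood at 3.56 to 6.17 CPM, median 5.12, in the clones against 273 CPM in the CD3+ library (log2 fold change -5.77 ± 0.19, adjusted p = 1.12e-07). TSC22D3, the glucocorticoid-induced leucine zipper, stood at 20.9 to 31.3 CPM, median 23.5, in the clones against 591 CPM in the CD3+ library (log2 fold change -4.55 ± 0.17, adjusted p = 2.05e-07). TXNIP, an inhibitor of thioredoxin and of glucose uptake, was the one that rose, at 871 to 1434 CPM, median 1162, in the clones against 242 CPM in the CD3+ library (log2 fold change 2.25 ± 0.26, adjusted p = 0.000101).

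B cell identity genes formed the counterpart. Of 27 tested, 22 rose, 17 of them 4-fold or more, 2 fell and 3 were not called. Of all genes tested, 37.7% were called higher, and 15.5% were called and 4-fold or more higher. The median log2 fold change of the 27 was 3.54. PAX5, on chromosome 1, 237574938 to 237785454, stood at 1629.8 to 2171 CPM, median 1942, in the clones against 5.08 CPM in the CD3+ library (log2 fold change 8.56 ± 0.29, adjusted p = 1.27e-07). EBF1, on chromosome 16, 64357999 to 64753188, stood at 312 to 478 CPM, median 361, in the clones against 0.354 CPM in the CD3+ library (log2 fold change 10.02 ± 0.43, adjusted p = 4.14e-07). The CD3+ value of EBF1 rests on 6 counts. All clones lay above the CD21+ library for both factors, at 1009 and 73.7 CPM.

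Surface proteins of B cells were present in every clone. MS4A1, also called CD20, stood at 353 to 488 CPM, median 434, in the clones against 8.44 CPM in the CD3+ library (log2 fold change 5.64 ± 0.28, adjusted p = 9.59e-07). CD22, an inhibitory coreceptor, stood at 404 to 559.9 CPM, median 468, in the clones against 6.55 CPM in the CD3+ library (log2 fold change 6.19 ± 0.26, adjusted p = 3.65e-07). For both genes the clones lay above the CD3+ library and below the CD21+ library.

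The B cell receptor chains differed from each other. CD79B stood at 524 to 925 CPM, median 723, in the clones against 6.20 CPM in the CD3+ library (log2 fold change 6.86 ± 0.41, adjusted p = 2.29e-06). CD79A stood at 177 to 229 CPM, median 214, in the clones against 113 CPM in the CD3+ library (log2 fold change 0.89 ± 0.15, adjusted p = 0.000800), a much smaller difference. The CD3+ library held CD79A at 23.7% of the CD21+ level, against 0.662% for CD79B and 0.632% for MS4A1.

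FCRLA, an Fc receptor-like protein inside B cells, stood at 721 to 1013 CPM, median 837, in the clones against 4.66 CPM in the CD3+ library (log2 fold change 7.53 ± 0.29, adjusted p = 2.46e-07). IKZF3, the factor Aiolos, which T cells also use, fell, at 124.8 to 218 CPM, median 185, in the clones against 468 CPM in the CD3+ library (log2 fold change -1.41 ± 0.24, adjusted p = 0.000870). CD37, a tetraspanin of lymphocytes, fell by a small amount, at 171 to 247 CPM, median 221, in the clones against 331 CPM in the CD3+ library (log2 fold change -0.63 ± 0.17, adjusted p = 0.00883). CXCR5, SWAP70 and TNFRSF13C were the genes not called, with log2 fold changes of 0.86, 0.20 and -1.25. TNFRSF13C, a receptor of B cell survival signals, was called lower without lymph node clone 1 (log2 -1.96, adjusted p = 0.019) and with the spleen clones alone (log2 -2.48, adjusted p = 0.00221). CXCR5, a chemokine receptor of B cell follicles, was called higher without lymph node clone 4 (adjusted p = 0.0402) or spleen clone 2 (adjusted p = 0.0248). It was also called with the lymph node clones alone (adjusted p = 0.0463), the spleen clones alone (adjusted p = 0.0292), DESeq2 (adjusted p = 0.0409) and total-count scaling (adjusted p = 0.0116), and SWAP70 with total-count scaling (adjusted p = 0.0154).

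B cell receptor signalling did not move as a block. Of 21 tested genes, 11 rose and 9 fell, against 37.7% and 33.7% of all genes tested. The median log2 fold change was 0.38. SYK, the kinase that docks on CD79A and CD79B, stood at 820.2 to 984 CPM, median 953, in the clones against 14.4 CPM in the CD3+ library (log2 fold change 6.02 ± 0.17, adjusted p = 5.49e-08). BTK, the TEC-family kinase of B cells, stood at 248 to 291 CPM, median 264, in the clones against 3.54 CPM in the CD3+ library (log2 fold change 6.24 ± 0.17, adjusted p = 4.55e-08), and BLNK, their adaptor, at 140.2 to 176 CPM, median 152, in the clones against 1.95 CPM in the CD3+ library (log2 fold change 6.32 ± 0.20, adjusted p = 9.13e-08). No clone came near the CD3+ library for any of the 3.

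SYK and ZAP70, related kinases that serve the B and the T cell receptor, were thus high on opposite sides. CD81, a tetraspanin of the B cell coreceptor, and the relay genes PRKCB, PIK3CD, GRB2, DAPP1, BCL10 and MALT1 fell, with log2 fold changes between -1.67 for CD81 and -0.52 for MALT1. BLK, a SRC-family kinase of B cells and of some gamma-delta T cells, stood at 6.92 to 14.7 CPM, median 11.0, in the clones against 169.6 CPM in the CD3+ library (log2 fold change -3.96 ± 0.27, adjusted p = 4.34e-06). With total-count scaling the falls of DAPP1, BCL10 and MALT1, and that of CD37 above, were not called.

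**Figure D4:**
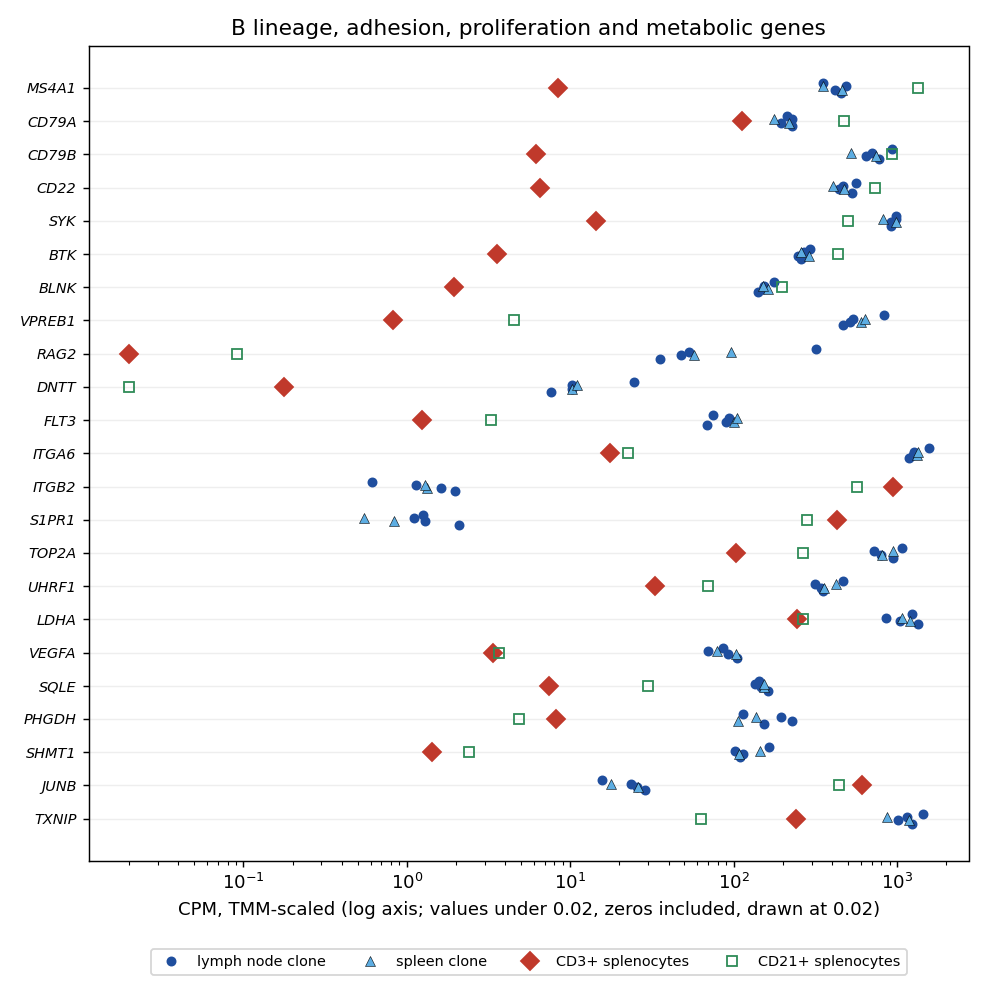
CPM (horizontal, log axis) of B lineage genes, progenitor genes, adhesion and egress genes, and genes of proliferation and metabolism, 1 symbol per library as named in the legend. The CD3+ diamond lies left of all clones from MS4A1 to ITGA6 and from TOP2A to SHMT1 and for TXNIP, and right of all clones for ITGB2, S1PR1 and JUNB.

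Genes of early B cell development mostly rose. Of 14 tested, 10 rose, against 37.7% of all genes tested, while 2 fell and 2 were not called. The median log2 fold change was 4.28. VPREB1, a surrogate light chain component of pre-B cells, stood at 466 to 827 CPM, median 572, in the clones against 0.826 CPM in the CD3+ library (log2 fold change 9.49 ± 0.54, adjusted p = 1.87e-06). ERG, a factor of blood stem cells, stood at 166 to 237 CPM, median 179.9, in the clones against 0.236 CPM in the CD3+ library (log2 fold change 9.61 ± 0.40, adjusted p = 3.28e-07). MYB, a factor of dividing progenitors, stood at 509 to 715 CPM, median 617, in the clones against 24.4 CPM in the CD3+ library (log2 fold change 4.65 ± 0.21, adjusted p = 6.06e-07). All clones lay above both normal libraries for these 3 genes, the CD21+ library holding 4.52, 0.593 and 8.85 CPM.

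The recombinase of the antigen receptor loci was uneven among clones. RAG2, which had no count in the CD3+ library, stood at 35.7 to 320.1 CPM in the clones, median 55.5, at least 575-fold higher from a floor of 3 counts. RAG1, its partner, had no CD3+ count and 1.22 to 30.1 CPM in the clones, median 1.58, at least 37.7-fold higher. Lymph node clone 4 held the highest level of both, 30.1 CPM of RAG1 against 4.23 CPM in the next clone. Without that clone, an alternative chosen after seeing the data, the bounds were 329-fold for RAG2 and 11.2-fold for RAG1. With no CD3+ count the direction of the test was fixed for both genes, and no p is given. RAG1 was not called over all clones. It was called without lymph node clone 4, with the spleen clones alone and with DESeq2. RAG2 was called, but not with limma-voom. RAG2 shares 4086 bases with C2H11orf74, whose level is not given here, and reads of the shared bases cannot be told apart.

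DNTT, the polymerase that adds bases at receptor joins, stood at 7.63 to 24.5 CPM in the clones, median 10.2, and had 3 counts in the CD3+ library, 72.2-fold higher by summed counts (95% counting interval 24.7 to 351). KIT, the stem cell factor receptor, had 1 count in all clones together against 793 in the CD3+ library, 6803-fold lower by summed counts (1218 to 269044). IL7R, the receptor that sustains early lymphocytes and naive T cells, stood at 66.0 to 129.8 CPM, median 82.1, in the clones against 237 CPM in the CD3+ library (log2 fold change -1.44 ± 0.26, adjusted p = 0.00131), so the clones carried it at a lower level than T cells, while the CD21+ library held 1.14 CPM.

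Homeobox genes and their cofactors were mostly higher in the clones. Of 20 tested HOXA, HOXB, MEIS and PBX family genes, 16 rose and 1 fell, against 37.7% and 33.7% of all genes tested. Their median log2 fold change came to 6.56. Of the tested genes 10 had no CD3+ count, entered the test through the clones and could only be higher there. Setting genes at 0 to their bound gave 4.57. HOXA7 and HOXB7 had no count in the CD3+ library and stood at 27.4 to 32.4 and 20.2 to 22.8 CPM in the clones, at least 168-fold and at least 120.5-fold higher. HOXA3 had none either and ranged more widely, from 8.48 to 41.6 CPM. Its RefSeq span overlaps those of HOXA4, HOXA5 and HOXA6, and with the strand of counting not given in the sources used here their reads cannot be told apart. PBX2, a cofactor used in most tissues, fell slightly (log2 -0.32 ± 0.11), a direction that turned with total-count scaling. With the lymph node clones alone PBX2 was not called (adjusted p = 0.0675).

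Genes of the germinal centre and of plasma cells gave no common direction, 8 of 20 tested being higher and 9 lower. Of all genes tested, 37.7% were called higher and 33.7% lower. The median log2 fold change of the list was -0.12. PRDM1, which drives plasma cells and effector T cells, stood at 0.396 to 1.11 CPM, median 0.773, in the clones against 40.7 CPM in the CD3+ library (log2 fold change -5.65 ± 0.29, adjusted p = 1.04e-06). BCL6, the germinal centre repressor, stood at 52.5 to 95.5 CPM, median 73.6, in the clones against 41.0 CPM in the CD3+ library (log2 fold change 0.81 ± 0.29, adjusted p = 0.0339). That call was lost without lymph node clone 2 or 3 or spleen clone 1, with the lymph node clones alone and with limma-voom.

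IRF4, a factor of activated B cells and plasma cells, stood at 161 to 211 CPM, median 179, in the clones against 16.7 CPM in the CD3+ library (log2 fold change 3.43 ± 0.20, adjusted p = 1.83e-06). MZB1, a chaperone of antibody secretion, stood at 137 to 168 CPM, median 149.5, in the clones against 10.3 CPM in the CD3+ library (log2 fold change 3.86 ± 0.15, adjusted p = 2.78e-07), and CREB3L2, a factor of the secretory pathway, at 62.4 to 114 CPM, median 87.2, in the clones against 4.13 CPM in the CD3+ library (log2 fold change 4.41 ± 0.44, adjusted p = 3.88e-05). ELL3, STAP1, SDC1 and XBP1 were the other genes that rose, by log2 2.97, 3.33, 1.42 and 0.61.

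Class I molecules present peptides to cytotoxic T cells and class II molecules to helper T cells. Of 13 tested genes of the class I pathway, 11 fell and 0 rose, against 33.7% and 37.7% of all genes tested. The median log2 fold change was -1.15. B2M, the common light chain of class I, stood at 137 to 178 CPM, median 149, in the clones against 1013 CPM in the CD3+ library (log2 fold change -2.73 ± 0.11, adjusted p = 2.50e-07). NLRC5, the activator of class I genes, stood at 19.3 to 22.7 CPM, median 20.4, in the clones against 368 CPM in the CD3+ library (log2 fold change -4.14 ± 0.09, adjusted p = 9.93e-09). SLA-5, a pig class I heavy chain, stood at 1.33 to 4.05 CPM, median 2.31, in the clones against 38.4 CPM in the CD3+ library (log2 fold change -3.97 ± 0.39, adjusted p = 3.60e-05), but SLA genes resemble each other and may share reads. For B2M and NLRC5 the clones lay below the CD21+ library as well, at 707 and 469 CPM.

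In class II, 4 of 11 tested genes rose, 2 fell and 5 were not called, with a median log2 fold change of 0.23. That share of genes that rose was near the 37.7% of all genes tested, and the difference between the classes was not tested. CIITA, the class II activator, stood at 128 to 252 CPM, median 234, in the clones against 32.7 CPM in the CD3+ library (log2 fold change 2.67 ± 0.44, adjusted p = 0.000713). CD74, the invariant chain, stood at 1444 to 3102 CPM, median 2714, in the clones against 1088 CPM in the CD3+ library (log2 fold change 1.21 ± 0.39, adjusted p = 0.0232), and SLA-DOA, a chain of the peptide-editing partner DO, at 44.3 to 85.8 CPM, median 63.9, in the clones against 17.9 CPM in the CD3+ library (log2 fold change 1.88 ± 0.36, adjusted p = 0.00177). RFXANK and CTSS, a class II promoter factor and a protease of the pathway, were lower, with log2 fold changes of -0.51 and -0.54, and neither was called with total-count scaling. Pig T cells are known to carry class II, and the CD3+ library held CD74 at 1088 CPM.

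Division genes were higher in the clones without exception. All 33 tested genes of DNA replication and mitosis rose, against 37.7% of all genes tested, and 22 rose 4-fold or more, against 15.5%. Their median log2 fold change was 2.31. UHRF1, which copies DNA methylation at the fork, stood at 316 to 464 CPM, median 355, in the clones against 33.2 CPM in the CD3+ library (log2 fold change 3.50 ± 0.26, adjusted p = 7.20e-06). CDC20, an activator of anaphase, stood at 172 to 233 CPM, median 204, in the clones against 18.4 CPM in the CD3+ library (log2 fold change 3.44 ± 0.22, adjusted p = 3.03e-06), and GINS1, part of the replicative helicase, at 103 to 122 CPM, median 106, in the clones against 11.2 CPM in the CD3+ library (log2 fold change 3.30 ± 0.15, adjusted p = 6.37e-07). No clone overlapped the CD3+ library for these 3 genes, as for every gene called.

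Of 24 tested genes of G1 control, MYC partners and p53, 15 rose and 7 fell, against 37.7% and 33.7% of all genes tested. The median log2 fold change was 0.92. BMI1, a Polycomb protein that silences cell cycle inhibitors, stood at 666 to 1205 CPM, median 824, in the clones against 53.5 CPM in the CD3+ library (log2 fold change 4.05 ± 0.38, adjusted p = 2.89e-05). MYCN, a relative of MYC, stood at 2.90 to 7.46 CPM, median 4.78, in the clones against 0.354 CPM in the CD3+ library (log2 fold change 3.72 ± 0.70, adjusted p = 0.00157), with 6 counts behind the CD3+ value. CDKN2C, an inhibitor of CDK4 and CDK6, stood at 111 to 232 CPM, median 219, in the clones against 28.1 CPM in the CD3+ library (log2 fold change 2.85 ± 0.42, adjusted p = 0.000400), lymph node clone 4 being lowest and the other 5 clones at 206 to 232 CPM. GADD45B, SESN1 and MAX, a stress gene, a p53 target and the partner of MYC, fell most, with log2 fold changes of -4.59, -1.99 and -1.32, and RB1, MXD1, MXD4 and GADD45A by less. RB1 shares 4609 bases with LPAR6, which had a mean of 28.4 CPM in the clones and 108.1 CPM in the CD3+ library, and reads of the shared bases cannot be told apart. The call for GADD45A was lost without lymph node clone 2 or spleen clone 1, at adjusted p = 0.0598 and 0.0613, and with total-count scaling neither GADD45A nor MXD4 was called.

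Of 26 tested genes of glycolysis and the hypoxia response 18 rose and 3 fell, against 37.7% and 33.7% of all genes tested. The median log2 fold change was 1.505. HK2, the inducible hexokinase, stood at 65.7 to 116 CPM, median 88.7, in the clones against 1.12 CPM in the CD3+ library (log2 fold change 6.30 ± 0.46, adjusted p = 7.36e-06). VEGFA, a hypoxia-induced growth factor, stood at 69.5 to 105 CPM, median 88.8, in the clones against 3.37 CPM in the CD3+ library (log2 fold change 4.72 ± 0.32, adjusted p = 4.69e-06), and SLC16A1, a lactate transporter, at 188 to 223 CPM, median 213, in the clones against 25.3 CPM in the CD3+ library (log2 fold change 3.06 ± 0.13, adjusted p = 3.29e-07). CA9, NDRG1 and PDK1, which hypoxia also induces, were lower, with log2 fold changes of -1.57, -1.57 and -0.71, the last not called with total-count scaling.

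Of 21 tested genes of cholesterol and fatty acid synthesis, 17 rose and 0 fell, against 37.7% and 33.7% of all genes tested. The median log2 fold change was 1.63. SQLE, squalene epoxidase, stood at 135 to 162 CPM, median 151, in the clones against 7.38 CPM in the CD3+ library (log2 fold change 4.33 ± 0.15, adjusted p = 1.35e-07). SCD, the desaturase of fatty acids, stood at 189 to 262 CPM, median 228, in the clones against 20.2 CPM in the CD3+ library (log2 fold change 3.49 ± 0.22, adjusted p = 3.08e-06), and IDI1, an isomerase of the mevalonate route, at 137 to 161 CPM, median 149, in the clones against 16.1 CPM in the CD3+ library (log2 fold change 3.21 ± 0.13, adjusted p = 3.57e-07). No clone overlapped the CD3+ library for any of them, as for every gene called.

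Of 20 tested genes of serine, one-carbon and asparagine synthesis and the amino acid stress response, 15 rose and 2 fell. Of all genes tested, 37.7% were called higher and 33.7% lower. The median log2 fold change of the 20 was 2.52. SHMT1, a serine hydroxymethyltransferase, stood at 102 to 166 CPM, median 112, in the clones against 1.42 CPM in the CD3+ library (log2 fold change 6.45 ± 0.45, adjusted p = 5.54e-06). PSAT1, an enzyme of serine synthesis, stood at 94.9 to 431 CPM, median 182, in the clones against 2.77 CPM in the CD3+ library (log2 fold change 6.39 ± 1.39, adjusted p = 0.00335), lymph node clones 2 and 3 being highest. CHAC1, a stress-induced enzyme of glutathione breakdown, stood at 7.43 to 54.9 CPM, median 18.2, in the clones against 0.413 CPM in the CD3+ library (log2 fold change 5.97 ± 1.87, adjusted p = 0.0198). Neither PSAT1 nor CHAC1 was called with limma-voom, at adjusted p = 0.0773 and 0.342. ATF4 and DDIT3, factors that drive such stress genes, were themselves lower, with log2 fold changes of -1.10 and -1.98.

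Transcripts of the mitochondrial genome were lower in the clones. All 13 tested genes fell, against 33.7% of all genes tested, and 7 fell 4-fold or more, against 11.2%. Their median log2 fold change was -2.09. ND2, ATP6 and ATP8, subunits of complex I and of the ATP synthase, fell most, with log2 fold changes of -2.53, -2.30 and -2.29. With these genes removed from the table, 5121 genes were called higher and 4590 lower.

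**Figure D5:**
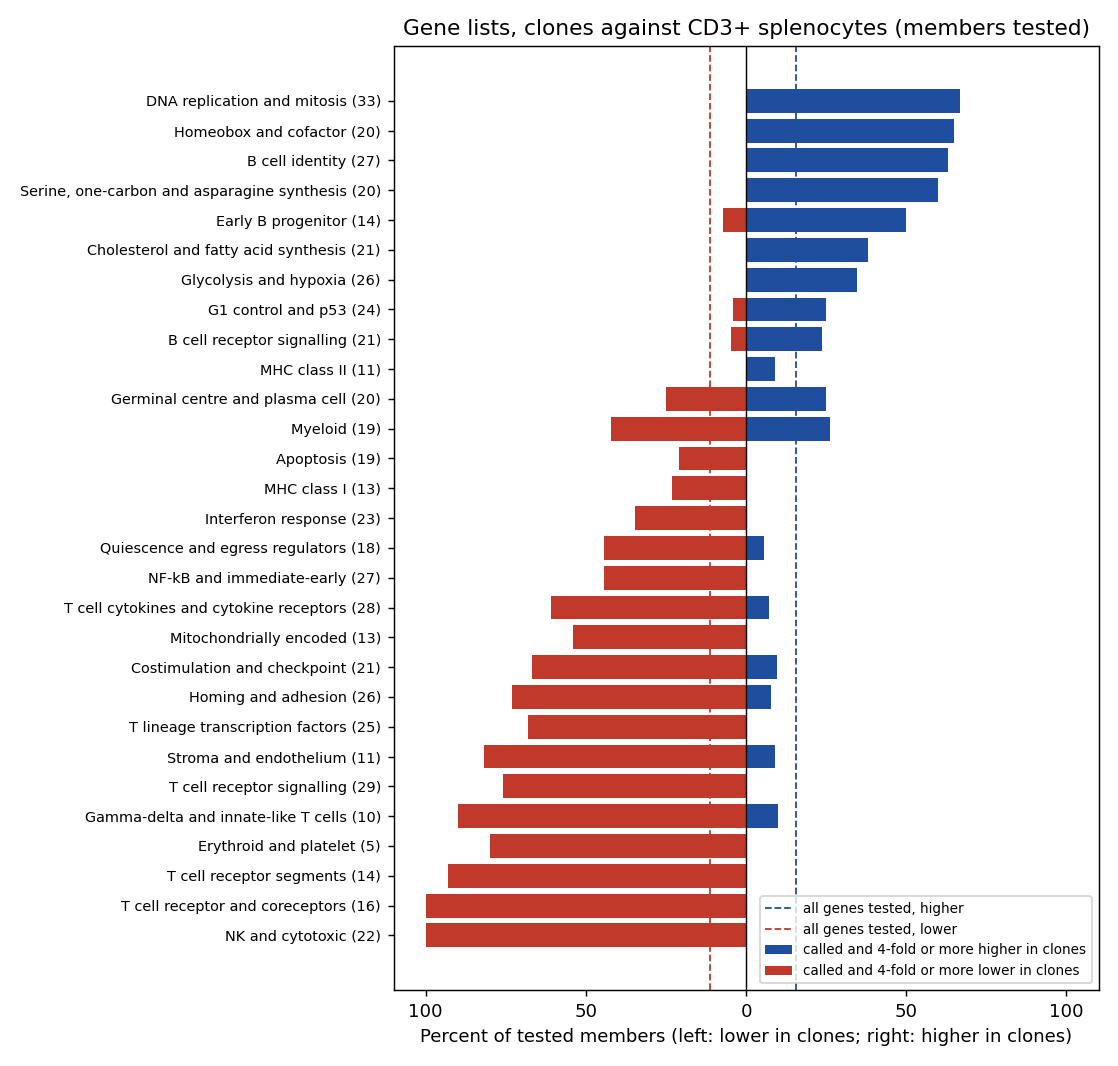
Percent of tested members of each gene list that were called and differed 4-fold or more, lower in the clones to the left and higher to the right, with the number tested in brackets. Dashed lines mark all genes tested, 15.5% higher and 11.2% lower, and the lists were chosen with earlier results of these data known.

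Markers of other blood and tissue cells were present in the CD3+ library. Of 19 tested myeloid genes, 7 rose and 9 fell, against 37.7% and 33.7% of all genes tested. The median log2 fold change was 0.04. Of the 19, 4 had no count in the clones or none in the CD3+ library, so their direction was fixed. The summed level of the list was 227 to 302 CPM in the clones against 818 CPM in the CD3+ library. C1QA and C1QB, complement chains of macrophages, had 1 and 2 counts over the clones and 30.8 and 38.0 CPM in the CD3+ library. CD163, a macrophage receptor, had none against 6.14 CPM. S100A12, a granulocyte protein, had none in either, and CD14, a monocyte receptor, had 0 to 0.114 CPM in the clones and 0.295 CPM in the CD3+ library. LYZ, lysozyme, stood at 2.01 to 5.66 CPM, median 3.52, in the clones against 2.60 CPM in the CD3+ library, and CD68, a lysosomal protein of macrophages, at 0.107 to 2.83 CPM, median 0.525, in the clones against 9.68 CPM in the CD3+ library. The clones lay on both sides of the CD3+ library for LYZ and below it for CD68.

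SPI1, the factor PU.1, which B cells and progenitors also use, stood at 78.9 to 102 CPM, median 83.4, in the clones against 2.89 CPM in the CD3+ library (log2 fold change 4.89 ± 0.20, adjusted p = 3.57e-07). CSF1R, the receptor of macrophage growth factor, stood at 28.9 to 48.9 CPM, median 38.2, in the clones against 12.9 CPM in the CD3+ library (log2 fold change 1.59 ± 0.27, adjusted p = 0.000895). MPO, a granule enzyme made by myeloid progenitors, had no CD3+ count and 1.36 to 16.6 CPM in the clones, at least 29.6-fold higher, or at least 16.8-fold without lymph node clone 4. Its direction too was fixed by the absence of CD3+ counts. The call for MPO was lost with limma-voom, with the lymph node clones alone and without spleen clone 1 or spleen clone 2. FCGR1A, CEBPA, TLR2 and TLR4 were the other genes that rose.

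Of 5 tested erythroid and platelet genes 4 fell, with a median log2 fold change of -6.22, or -5.76 at the bounds. Of 11 of stroma and endothelium 10 fell, with a median of -6.50. Over all genes tested, 33.7% were called lower. Among the tested members, 2 erythroid and platelet genes and 3 of stroma and endothelium had no count in any clone. They entered the test through the CD3+ library and could only be lower. HBB, a globin, had no count in the clones and 8.09 CPM in the CD3+ library, and COL3A1, a fibroblast collagen, none and 5.73 CPM. ALAS2, PPBP and ITGB3, an erythroid enzyme, a platelet chemokine and a platelet integrin chain, had at most 0, 0.0566 and 0.0838 CPM in any clone and 1.12, 0.0590 and 2.48 CPM in the CD3+ library. ITGA2B, another platelet integrin chain, was not called (log2 -0.15 ± 0.07, adjusted p = 0.0844). It was called lower with TMM factors of the 7 libraries (adjusted p = 0.0405), RLE factors (adjusted p = 0.0178) and DESeq2 (adjusted p = 0.00359), and higher with total-count scaling (log2 0.26, adjusted p = 0.0109). The collagens COL1A1 and COL1A2, the matrix protein SPARC and the endothelial genes VWF and CDH5 had 9, 1, 0, 1 and 0 counts in all clones together, against 61, 123, 63, 22 and 1 in the CD3+ library. PECAM1, an endothelial and leukocyte adhesion protein, stood at 6.92 to 15.4 CPM, median 12.5, in the clones against 91.7 CPM in the CD3+ library. PDGFRB, a growth factor receptor of mesenchymal cells, was the gene that rose, at 3.34 to 10.1 CPM, median 6.84, in the clones against 0.118 CPM in the CD3+ library, with 2 counts behind the CD3+ value. Including the uncalled ITGA2B, the erythroid and platelet list summed to 159 CPM in the CD3+ library and 119 to 127 CPM in the clones. The stromal list summed to 161 CPM in the CD3+ library and 11.7 to 29.5 CPM in the clones. The part of these cells in the differences above was not tested.

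Across all genes, the ends of the ranking held T and B lineage genes and some others. The 12 highest, after setting levels under 3 counts to that floor, were EBF1, SLC2A5, RASAL1, KCNJ16, ERG, VPREB1, PLS3, CLGN, PROK2, PEG10, RAG2 and COL6A3. The place of RAG2 rests on lymph node clone 4: it ranked 11 with all clones and 29 without that clone. SLC2A5, the fructose transporter, stood at 67.2 to 268 CPM in the clones, median 172, with 3 counts in the CD3+ library, 926-fold higher by summed counts (95% counting interval 317 to 4489.9). KCNJ16, a potassium channel subunit, had 1 CD3+ count and 103 to 172 CPM in the clones, 2505-fold higher by summed counts (449.6 to 98959). CLGN, a chaperone of the testis, was the most even among clones, at 108 to 127 CPM in the clones against 0.118 CPM in the CD3+ library. Most of the 12 were also low in the CD21+ library, where RASAL1, CLGN and EBF1 reached 18.1, 17.0 and 73.7 CPM and each of the others was under 5 CPM.

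PEG10, an imprinted gene derived from a retrotransposon, stood at 119.5 to 163 CPM, median 138, in the clones against 0.236 CPM in the CD3+ library (log2 fold change 9.16 ± 0.35, adjusted p = 2.24e-07). COL6A3, a chain of collagen VI, stood at 206 to 468 CPM, median 269, in the clones against 0.531 CPM in the CD3+ library (log2 fold change 9.13 ± 0.78, adjusted p = 1.65e-05). PROK2, a secreted prokineticin, had 2 CD3+ counts and 88.6 to 153 CPM in the clones, 912-fold higher by summed counts (252 to 7532). PLS3, an actin-bundling plastin, and RASAL1, a regulator of RAS, were 1012-fold (280.1 to 8358) and 860.0-fold (294 to 4171) higher by summed counts. RASAL1 shares 890 bases with DTX1, a NOTCH regulator at 72.7 CPM in the clones and 15.9 CPM in the CD3+ library, so part of its reads could be those of DTX1.

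Among the 12 lowest were HPSE, CD244, EPHB6, AMPH, EOMES, CD3D, RHEX, CD3E, PRKCQ and FGL2. HPSE, heparanase, stood at 0 to 0.143 CPM, median 0.0354, in the clones against 461 CPM in the CD3+ library (log2 fold change -13.07 ± 0.24, adjusted p = 7.26e-09). FGL2, a secreted product of cytotoxic and regulatory T cells, stood at 0 to 0.170 CPM, median 0.0730, in the clones against 434 CPM in the CD3+ library (log2 fold change -12.65 ± 0.24, adjusted p = 7.69e-09). CD244, a receptor of NK and cytotoxic T cells, had 3 counts in all clones together against 3097, 8856-fold lower by summed counts (3028 to 42969). In each of the genes named no clone reached 1 CPM.

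EPHB6, an ephrin receptor of T cells, had 1 count in all clones together against 2850, 24450.1-fold lower by summed counts (4385 to 966063). AMPH, amphiphysin, had 3 counts against 2572, 7355-fold lower by summed counts (2514 to 35689). RHEX stood at 0 to 0.113 CPM, median 0.0354, in the clones against 299.8 CPM in the CD3+ library.

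The clones were alike in the size of their distance from T cells. Taken 1 at a time, with no test, they had 1903 to 2005 genes 4-fold or more higher than the CD3+ library and 1524 to 1681 genes 4-fold or more lower. In all 6 clones together 1511 genes were 4-fold or more higher and 1220 lower. With the 4 lymph node clones alone 1998 genes were called and 4-fold or more higher and 1474 lower, and with the 2 spleen clones alone 2136 and 1540. Both fits use the same CD3+ library and are not independent of each other.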

How the data were processed

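RNA-seq of 6 lymphoma clones, 1 CD3+ and 1 CD21+ splenocyte library was deposited as counts per gene, made by the authors with Trimmomatic, Bowtie2 and edgeR per the submitters' processing notes, against Sscrofa11.1 per the series' design text. For tool versions, the counting tool, annotation and strand the sources used here give nothing. Lines without a feature ID, which hold no gene, were dropped. Of 6841 features with an Ensembl ID only, 877 were given a symbol from a gene name table. TMM factors came from all 8 libraries, low counts were filtered by group with filterByExpr, and the clones were fitted against the CD3+ library with edgeR 4.0.16 (quasi-likelihood F-test, Benjamini-Hochberg adjustment, 0.05, R 4.3.3). The approximate standard error is the log2 fold change over the root of F. Depth was 16415644 to 27253505 counts per library. Intervals and floors of 3 counts cover counting error only. Alternatives were other scalings, filters, DESeq2 1.42.0, limma-voom 3.58.1 and subsets of clones. The text names the 12 highest and 12 lowest symbols by floored ratio, and in each of 28 lists the defining members, up to 3 called members each way and those against the list's direction, plus 10 others. CXCR5, ID3, KLRD1, NCR1, SWAP70, TNFRSF13C, TRAV36DV7, ZBTB7B and the remaining genes plotted were chosen after their values were seen. Members and lists were chosen with earlier results of these data known. Some genes that the rule names are not reported here. No sequences were printed, because no sequence table was used here.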

Additional observations from a re-analysis of the deposited data

Results flagged for a closer look

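In the genes named above, 1 clone stood apart from the other 5 on the log2(CPM + 1) scale by Dixon's criterion, which chance meets in about 1 of 20 groups. No explanation was tested for any of them.

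Lymph node clone 4 stood apart in the most genes with levels above 1 CPM. It was high for CD247 (54.1 CPM), LEF1 (1716), TGFBR1 (143), RAG1 (30.1), SESN1 (24.4), DNTT (24.5) and CD2 (13.01). It was low for SDC1 (7.99 CPM), CDKN2C (111) and SATB1 (0.753).

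Lymph node clone 1 was low for KCNJ16 (103 CPM) and SLC16A1 (188) and high for SPI1 (102) and GATA3 (0.113). Spleen clone 2 was low for SYK (820.2 CPM) and GADD45A (11.11).

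The remaining cases rest on a few counts in a clone, with no count in any other clone. The gap then equals the whole range, so the criterion was met by construction. The rate given above for chance does not apply to them. They were 0.0762 CPM of C1QB and 0.0381 of PRKCQ, GZMB and IL18R1 in lymph node clone 3. Lymph node clone 2 had 0.0476 CPM of KIT and of TRBV25-1. Spleen clone 1 had 0.0349 CPM of TNFSF14, C1QA and VWF, and spleen clone 2 had 0.0419 CPM of EPHB6 and of COL1A2.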

How the results depend on the processing

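No paired analysis was possible because the clones were compared with 1 CD3+ library and the labels name no animal linking it to a clone. Counts of called genes stayed within 1.5 times of those given in all 17 alternatives, and without each clone in turn 4900 to 5362 genes were called higher and 4377 to 4834 lower. Over 3740 alternative values 3616 kept their direction and call, 51 moved by more than the spread between clones, 41 lost a call, 23 gained one and 9 turned direction, and the causes were not tested. Depth limits genes with few counts in 1 library.

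Total-count scaling turned the median log2 fold changes of germinal centre and plasma cell genes (0.29) and apoptosis (0.38), and the values of PBX2 (0.10), ITGA2B (0.26) and ZBTB7B (0.14). It moved the medians of T cell receptor (-11.53), segments (-8.65), signalling (-3.43), gamma-delta (-6.76), NK (-9.55), costimulation (-2.24), cytokine (-1.73), homing (-3.26), quiescence (-1.48), B identity (3.96), B cell receptor signalling (0.80), class II (0.65), class I (-0.73), myeloid (0.45), erythroid and platelet (-5.81), replication (2.72), G1 (1.33), NF-kB (-1.42), interferon (-1.14), glycolysis (1.92), cholesterol (2.05), serine (2.94) and mitochondrial (-1.67) genes.

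The myeloid median, 0.04, turned with TMM over 7 libraries (-0.003), RLE factors (-0.048) and DESeq2 (-0.047), and ran from -0.048, without lymph node clone 4, to 0.068 when clones were left out. Leave-one-out medians ran from -6.81, without spleen clone 2, to -5.94, without spleen clone 1, for erythroid and platelet genes and from 0.88 to 1.05, without lymph node clone 4, for G1 genes. The apoptosis median was -0.12 with RLE and with DESeq2, which also gave 5.45 for homeobox and -6.51 for erythroid and platelet genes. With limma-voom the medians were -11.46 for the T cell receptor, -7.49 for segments, 4.59 for homeobox, -5.78 for erythroid and platelet and -5.91 for stromal genes. Without the filter they were -0.29 for germinal centre, 5.03 for homeobox and -2.45 for erythroid and platelet genes, and with a filter at 1 CPM 7.40 for homeobox genes.

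With lymph node clones alone the medians were -11.65 for the T cell receptor and -7.53 for gamma-delta genes. With spleen clones alone they were -12.32 for the T cell receptor, -9.31 for segments, -10.42 for NK, 3.28 for B identity, -0.23 for germinal centre, -5.83 for erythroid and platelet, -5.74 for stromal, 1.07 for G1, -0.13 for apoptosis and -1.92 for mitochondrial genes. Calls lost with limma-voom included SLC2A5, RAG2, DNTT, SDC1, HOXA3, MPO, TLR2 and PDGFRB.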

Other observations

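Genes of immediate-early and NF-kB responses were lower in the clones. Of 27 tested, 17 fell and 1 rose, against 33.7% and 37.7% of all genes tested, with a median log2 fold change of -1.84. JUNB, an AP-1 factor, stood at 15.7 to 28.7 CPM, median 24.5, in the clones against 606 CPM in the CD3+ library (log2 fold change -4.73 ± 0.22, adjusted p = 6.06e-07). NFKBIZ and TNFAIP3, a regulator and an inhibitor of NF-kB, fell, with log2 fold changes of -4.33 and -4.14, and NFKB1, a subunit of NF-kB, rose by log2 0.37.

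Of 23 tested interferon-response genes, 15 fell and 3 rose, against 33.7% and 37.7% of all genes tested. The median log2 fold change was -1.56. OASL, ISG15 and IFI44L, antiviral genes, fell, with log2 fold changes of -5.09, -4.10 and -3.28. IFIT2, IFIT5 and IRF7 rose by log2 1.90, 1.81 and 1.38. IFIT2 overlaps LIPA, and their reads cannot be told apart.

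Apoptosis genes gave no common direction. Of 19 tested, 8 fell, 3 rose and 8 were not called, with a median log2 fold change of -0.04. Over all genes tested, 33.7% were called lower and 37.7% higher. PMAIP1, FAS and MCL1, a death promoter, a death receptor and a survival factor, fell, with log2 fold changes of -3.27, -2.59 and -2.09. BID, a death promoter, rose by log2 0.43. BAD, another, had a log2 fold change of 0.36 (adjusted p = 0.0394). That call was lost without lymph node clone 2 or 3 or spleen clone 1, with the spleen clones alone, without the filter, with DESeq2, limma-voom, RLE factors and TMM factors of the 7 libraries (adjusted p 0.0515 to 0.124).

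B lineage genes in the CD3+ library stood at unequal shares of their CD21+ level. JCHAIN, the joining chain of secreted antibodies, stood in the CD3+ library at 24.1% of its CD21+ level and TNFRSF17, a receptor of plasma cells, at 26.9%. CD79A stood at 23.7%, IRF4 at 6.10%, MZB1 at 4.21%, CD22 at 0.889% and PAX5 at 0.503%. JCHAIN stood at 14.6 to 22.6 CPM, median 16.5, in the clones against 384 CPM in the CD3+ library, and TNFRSF17 at 0 to 0.0762 CPM, median 0, in the clones against 2.36 CPM in the CD3+ library. Whether B lineage cells in the CD3+ library bear on these differences was not tested.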
